A study of Caenorhabditis elegans with 12 samples.

Results

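In early Caenorhabditis elegans embryos, 62 of 27904 counted genes were nearly silent in wild type and gave reads in all 3 H3K9 methyltransferase mutants. The genes were chosen by raw counts: a gene was taken when its counts summed to 6 or less over the 3 wild-type libraries and to 30 or more over the 3 libraries of each mutant genotype. All differences between genotypes in these 62 genes, between mutants as well as from wild type, therefore rest on counts that chose the genes; they are given as a description, and nothing is read from a count of calls among them. Ribosome-depleted total RNA was sequenced from 4 genotypes with 3 libraries (a, b and c) each: the met-2(n4256); set-25(n5021) double mutant, met-2(n4256), set-25(n5021) and N2 (Bristol), the wild type. Per the labels, both alleles lie on chromosome III, the worms grew at 20 °C, and the embryos, of about 1 to 300 cells, were taken 60 to 65 h after larval synchronization. Since the labels state 2 independent biological replicates but each genotype has 3 libraries, p-values measure only the spread between libraries, which may in part be technical.

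MET-2 and SET-25 are the enzymes that methylate lysine 9 of histone H3 in the worm embryo, and this mark is known for covering repeats and silent, tissue-specific genes at the nuclear periphery. Early embryos run largely on RNA loaded by the mother, while genes for cuticle, secreted matrix, gut defence and nerve signalling are switched on as cells differentiate. The cuticle is a layer of collagens and other secreted proteins laid down by the epidermis late in embryogenesis.

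Gene counts per library were 42943190 to 46833848 in the double mutant, 23543963 to 25667207 in the libraries labelled met-2, 16929810 to 23924919 in set-25 and 41033729 to 52683919 in N2. Depth differed by genotype, and effects of depth or of any batch sharing it cannot be told apart from those of genotype. The met-2 RNA stood at 51.1 to 54.3 CPM (counts scaled to the library total and between libraries by TMM) in the double mutant and at 215 to 313 CPM in the libraries labelled met-2, against 315 to 330.2 CPM in N2. These libraries thus did not show the low met-2 RNA of the double mutant, and every direction given for them belongs to libraries so labelled. The set-25 RNA stood at 57.5 to 62.3 CPM in the double mutant and 37.3 to 40.1 CPM in set-25, against 181 to 218 CPM in N2. In the libraries labelled met-2 the set-25 RNA stood at 77.2 to 115 CPM, below every N2 library. Transcripts of 22 germline and maternal genes, which mark early embryos, were present in every genotype, with summed levels of 4259 to 4809 CPM in the double mutant, 2043 to 2408 CPM in the libraries labelled met-2, 1889 to 2639 CPM in set-25 and 4765 to 6112 CPM in N2. Sperm genes (1.89 to 4.56 CPM summed) and vitellogenins (0.471 to 2.43 CPM summed), which mark adult tissue, stayed low in all 12 libraries.

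Together the 62 genes gave 4277 counts in the double mutant, 32302 in the libraries labelled met-2 and 10022 in set-25, against 228 counts in N2. In summed level that was 34.4 ± 1.90 CPM in the double mutant, 400 ± 162 CPM in the libraries labelled met-2 and 155 ± 124 CPM in set-25, against 1.88 ± 0.206 CPM in N2 (mean ± SD, n = 3). Much of the single mutant sums came from Y47D7A.13, C50D2.1 and col-65. Without them, libraries a, b and c summed to 28.5, 28.8 and 26.8 CPM in the double mutant and 282, 283 and 133 CPM in those labelled met-2. In set-25 they summed to 26.1, 85.5 and 181 CPM, against 1.62, 1.96 and 1.64 CPM in N2. Every one of the 62 genes had at least 1 read in each of the 9 mutant libraries. In N2 libraries a, b and c, 20, 19 and 25 of them had no read. Both F26G1.5 and C02E7.7 had none in any N2 library. In 59 of the 62 genes every mutant library stood above every N2 library, where 12.8% of the 14260 genes tested showed this, and the exceptions were T02B11.6, lge-1 and ttr-17. EdgeR called 47 of the 62 genes higher than N2 in the double mutant, 62 in the libraries labelled met-2 and 62 in set-25, where 8.7%, 35.2% and 24.2% of all genes tested were called higher. The selection fixed the direction of these calls and of the 59 genes above in advance, so no excess over these shares is read from them. In bulk RNA, fewer cells that express a gene and less RNA per cell cannot be told apart.

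**Figure D1:**
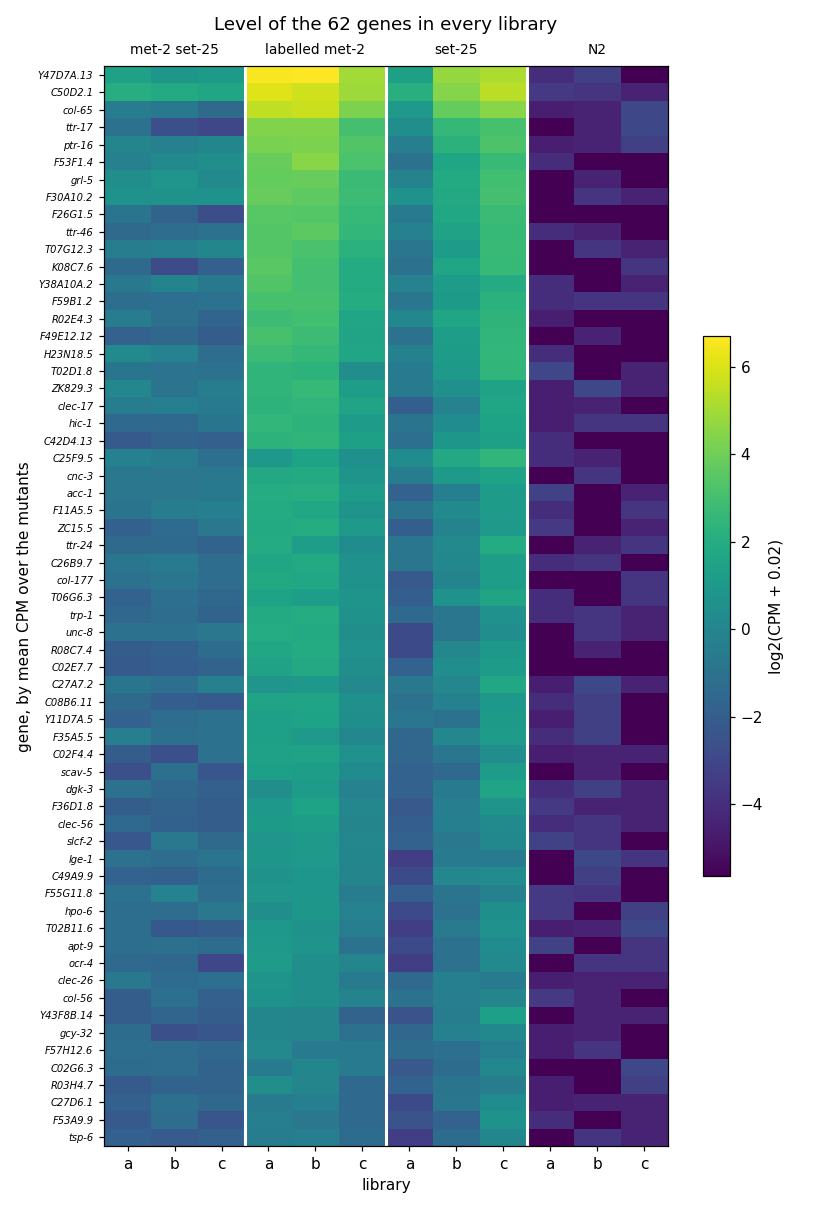
Level of each of the 62 genes (rows, ordered by mean CPM over the mutant genotypes) in each of the 12 libraries (columns), as log2(CPM + 0.02) in colour. The libraries labelled met-2 are the brightest, set-25 library a resembles the double mutant libraries, and the N2 libraries are dark throughout.

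By the mean of its libraries, the double mutant held the lowest summed level of these genes among the mutants. This did not hold for every library: set-25 library a, at 34.8 CPM summed, lay within the range of the double mutant libraries. Mean levels ran from the libraries labelled met-2 through set-25 down to the double mutant in 56 of the 62 genes. The share of all genes tested with this order was not computed, so no excess is read from this count. In 5 genes (C25F9.5, C27A7.2, C27D6.1, F53A9.9 and Y43F8B.14) set-25 was above the libraries labelled met-2, and in F55G11.8 alone the double mutant was above set-25. The lower limit of the selection was itself lowest for the double mutant: 30 counts correspond to 0.242 CPM there, 0.368 CPM in the libraries labelled met-2 and 0.430 CPM in set-25, against 0.0491 CPM for the 6 counts allowed in N2.

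The cuticle collagens among the 62 genes were col-65, col-177 and col-56. The gene col-65 (K08C9.4, chromosome I, 11489158 to 11490578 in the WBcel235 annotation) stood at 0.717, 0.619 and 0.360 CPM in double mutant libraries a, b and c, at 46.4, 52.99 and 19.2 CPM in those labelled met-2 and at 1.93, 13.7 and 22.8 CPM in set-25, against 0.0208, 0.0268 and 0.109 CPM in N2. All libraries labelled met-2 were high, set-25 library a was far below b and c, and the double mutant lay below every single mutant library. Summed over libraries, its level relative to N2 was 11.6-fold in the double mutant (95% counting interval 5.09 to 32.8), 799-fold in the libraries labelled met-2 (367 to 2179.97) and 242-fold in set-25 (111 to 662). In col-177 (F59F3.2) the values were 0.486, 0.547 and 0.412 CPM in the double mutant, 3.65, 3.33 and 1.57 CPM in the libraries labelled met-2 and 0.197, 0.943 and 2.42 CPM in set-25, against 0, 0 and 0.0546 CPM in N2. Here set-25 library a was below the double mutant. The third collagen, col-56 (T08B2.2), was weaker, with means of 0.306 ± 0.107 CPM in the double mutant, 1.27 ± 0.337 CPM in the libraries labelled met-2 and 0.722 ± 0.237 CPM in set-25, against 0.0297 ± 0.0312 CPM in N2 (SD, n = 3).

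The gene table held 178 cuticle collagens, of which 74 met the N2 limit of 6 counts. Of these 74, 4 reached 30 counts in the double mutant, 15 in the libraries labelled met-2 and 10 in set-25. Over all genes, 12253 met the N2 limit, and of these 108 reached 30 counts in the double mutant, 433 in the libraries labelled met-2 and 148 in set-25. All limits were met by 3 of the 178 collagens and by 62 of all 27904 genes. Among 89 further collagens with enough reads to test, 52 were lower and 2 higher in the double mutant than in the libraries labelled met-2 (edgeR, adjusted p under 0.05), where 30.8% of all genes tested were lower. Against set-25, 28 of the 89 were lower and 6 higher, where 17.7% of all genes tested were lower. Against N2, 11 of the 89 were higher in the double mutant (8.7% of all genes tested), 63 in the libraries labelled met-2 (35.2%) and 44 in set-25 (24.2%).

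Hedgehog-related and patched-related genes, whose products work at the apical surface and in the matrix of epidermal cells, gave 1 gene each. The ground-like gene grl-5 (Y47D7A.5, chromosome V, 4412748 to 4414663) stood at 1.37, 1.69 and 1.16 CPM in the double mutant, at 13.7, 14.1 and 6.84 CPM in the libraries labelled met-2 and at 0.908, 3.77 and 7.88 CPM in set-25, against 1 read in all 3 N2 libraries. The patched-related gene ptr-16 (T21H3.2, chromosome V, 1165711 to 1174969) stood at 0.972, 0.809 and 0.978 CPM in the double mutant, at 18.4, 19.3 and 10.05 CPM in the libraries labelled met-2 and at 0.750, 4.83 and 9.36 CPM in set-25, against 0.0208, 0.0268 and 0.0819 CPM in N2. In both genes set-25 library a fell below the double mutant, and libraries b and c stood above it.

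The transthyretin-related family, secreted proteins found in large numbers in nematodes, gave ttr-17, ttr-46 and ttr-24. For ttr-17 (Y5F2A.2, chromosome IV, 11066019 to 11067026) the levels were 0.463, 0.143 and 0.103 CPM in the double mutant, 20.4, 20.8 and 8.30 CPM in the libraries labelled met-2 and 1.34, 5.97 and 8.67 CPM in set-25, against 0, 0.0268 and 0.109 CPM in N2. Its double mutant library c and its N2 library c overlapped, and its double mutant sum was 30 counts, at the limit of selection. For ttr-46 (T07C12.7) the levels were 0.370, 0.404 and 0.463 CPM in the double mutant, 10.4, 11.9 and 5.74 CPM in the libraries labelled met-2 and 0.829, 2.71 and 6.10 CPM in set-25, against 0.0415, 0.0268 and 0 CPM in N2. For ttr-24 (Y51A2D.9) the means were 0.337 ± 0.0469 CPM in the double mutant, 2.497 ± 1.29 CPM in the libraries labelled met-2 and 1.81 ± 1.73 CPM in set-25, against 0.0271 ± 0.0273 CPM in N2 (SD, n = 3). Of 58 ttr genes in the table, 26 met the N2 limit, and 3 of these reached 30 counts in the double mutant, 7 in the libraries labelled met-2 and 4 in set-25, beside the 108, 433 and 148 of 12253 over all genes in the same order. Of 30 further ttr genes tested, 25 were lower and 1 was higher in the double mutant than in the libraries labelled met-2, where 30.8% of all genes tested were lower.

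Immune-type genes were the C-type lectins clec-17, clec-56 and clec-26 and the caenacin cnc-3, an antimicrobial peptide gene. The lectin clec-17 (E03H4.10) stood at 0.741, 0.785 and 0.669 CPM in the double mutant, at 5.02, 5.63 and 2.92 CPM in the libraries labelled met-2 and at 0.237, 0.864 and 3.05 CPM in set-25, against 0.0208, 0.0268 and 0 CPM in N2. The caenacin cnc-3 (R09B5.8) stood at 0.602, 0.571 and 0.592 CPM in the double mutant, at 3.53, 3.66 and 1.64 CPM in the libraries labelled met-2 and at 0.711, 2.003 and 2.84 CPM in set-25, against 2 reads in N2. The lectin clec-56 averaged 0.280 ± 0.0599 CPM in the double mutant, 1.81 ± 0.756 CPM in the libraries labelled met-2 and 0.726 ± 0.463 CPM in set-25, against 0.0408 ± 0.0131 CPM in N2 (SD, n = 3). The lectin clec-26 was the flattest of the 4, with means of 0.473 ± 0.115 CPM in the double mutant, 1.24 ± 0.504 CPM in the libraries labelled met-2 and 0.608 ± 0.225 CPM in set-25, against 0.0249 ± 0.00364 CPM in N2 (SD, n = 3). C-type lectins numbered 240 in the table, of which 135 met the N2 limit and 3 of these 135 reached 30 counts in the double mutant, 12 in the libraries labelled met-2 and 4 in set-25, beside 108, 433 and 148 of 12253 over all genes.

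Among the 62 genes were also some that encode channels and signalling proteins known from nerve cells, for which no list was fixed. They include acc-1, an acetylcholine-gated chloride channel, trp-1, a TRPC-type cation channel, unc-8, a degenerin sodium channel of motor neurons, ocr-4, a TRPV-type channel, and gcy-32, a soluble guanylate cyclase of oxygen-sensing neurons; ocr-4 was chosen for mention after its values were seen. The channel unc-8 (R13A1.4, chromosome IV, 7197153 to 7203660) stood at 0.486, 0.476 and 0.566 CPM in the double mutant, at 3.92, 3.66 and 1.35 CPM in the libraries labelled met-2 and at 0.118, 0.550 and 1.31 CPM in set-25, against 0, 0.0536 and 0.0273 CPM in N2. Its set-25 and double mutant libraries overlapped. The channel trp-1 (ZC21.2) stood at 0.324, 0.404 and 0.283 CPM in the double mutant, at 3.73, 4.02 and 1.60 CPM in the libraries labelled met-2 and at 0.355, 0.550 and 1.47 CPM in set-25, against 0.0415, 0.0536 and 0.0273 CPM in N2. For acc-1 (F58G6.4) the means were 0.589 ± 0.0252 CPM in the double mutant, 3.40 ± 1.09 CPM in the libraries labelled met-2 and 1.11 ± 1.03 CPM in set-25, against 0.0368 ± 0.0423 CPM in N2 (SD, n = 3). The channel ocr-4 (Y40C5A.2) was near the limits, with 33 reads in the double mutant, 123 in the libraries labelled met-2 and 36 in set-25, against 4 in N2. Likewise gcy-32 (C06B3.8) had 30 reads in the double mutant, 65 in the libraries labelled met-2 and 49 in set-25, against 2 in N2. Neuropeptide, insulin-like, cytochrome P450, UDP-glucuronosyltransferase, nuclear hormone receptor and F-box families gave no gene to the 62. Of 1247 chemoreceptor genes, 896 met the N2 limit and 0 met all limits of the selection.

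The highest mean levels over the mutant genotypes were those of Y47D7A.13 (33.5 CPM) and C50D2.1 (25.8 CPM), which have no gene symbol, before col-65 (17.6 CPM). Per kilobase of exon, and averaged over the mutant genotypes, Y47D7A.13 led with 35.8 CPM per kb, before col-65 with 17.7, ttr-17 with 16.004, C50D2.1 with 13.3 and F53F1.4 with 12.5 CPM per kb. The gene Y47D7A.13 (chromosome V, 4434992 to 4435927, 1 exon) stood at 2.66, 1.86 and 2.09 CPM in the double mutant, at 94.6, 104 and 31.4 CPM in the libraries labelled met-2 and at 2.57, 26.7 and 36.2 CPM in set-25, against 0.0415, 0.0803 and 0 CPM in N2. The gene C50D2.1 (chromosome II, 111567 to 114460, 8 exons) stood at 4.10, 3.69 and 3.04 CPM in the double mutant, at 67.3, 55.9 and 29.2 CPM in the libraries labelled met-2 and at 4.19, 21.999 and 43.0 CPM in set-25, against 0.0623, 0.0536 and 0.0273 CPM in N2. In both genes set-25 library a stood at the level of the double mutant, over 5-fold below libraries b and c. For F53F1.4 (chromosome V, 13411077 to 13411714, 2 exons) the levels were 0.810, 1.14 and 1.36 CPM in the double mutant, 14.1, 22.8 and 9.12 CPM in the libraries labelled met-2 and 0.474, 3.10 and 6.47 CPM in set-25, against 2 reads in N2. In F30A10.2 (chromosome I, 9479101 to 9480912) the double mutant libraries were nearly equal, at 1.597, 1.594 and 1.596 CPM, with 14.2, 12.3 and 6.91 CPM in the libraries labelled met-2 and 1.54, 3.496 and 8.20 CPM in set-25, against 3 reads in N2. Its set-25 library a was below the double mutant, while b and c were above it. With no read in N2, F26G1.5 was at least 12.8-fold higher in the double mutant, at least 380.3-fold higher in the libraries labelled met-2 and at least 135-fold higher in set-25, against a floor of 3 counts over the N2 group. By the same floor C02E7.7 was at least 9.84-fold higher in the double mutant, at least 102-fold higher in the libraries labelled met-2 and at least 47.2-fold higher in set-25. These intervals and bounds cover counting error only.

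**Figure D2:**
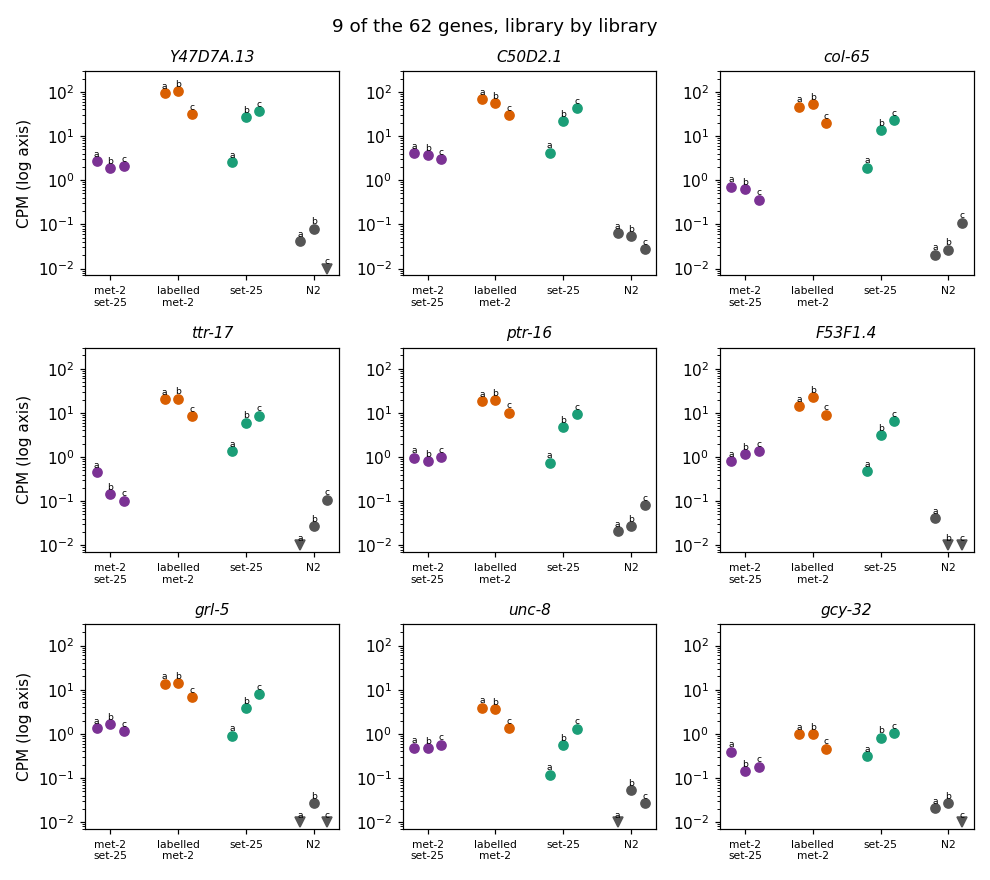
CPM on a log axis for 9 of the 62 genes, with 1 point per library (letters a, b and c), the double mutant at left and N2 at right; triangles at 0.01 stand for libraries with no read. Set-25 library a and library c of the group labelled met-2 are the lowest of their genotypes in all 9 panels. Set-25 library a lies above the double mutant points in col-65 and ttr-17, well below them in unc-8 and closer to them in the others.

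The mutants were also set against each other. The lower limit of the selection lay at fewer CPM in the double mutant than in either single mutant, as given above, so the selection could itself favour lower values there. Because the calls below use counts that chose the genes, no excess over the share of all genes is read from them. Of the 62 genes, edgeR called 54 lower in the double mutant than in the libraries labelled met-2 (87.1%; adjusted p under 0.05), where 30.8% of all genes tested were lower. None was higher, where 23.1% of all genes tested were: edgeR called 0, with 0 at an unadjusted p under 0.05, and DESeq2 called 0. The median log2 change was -2.65 over the 62 genes and -0.12 over all genes tested. In 58 of the 62 genes all 3 double mutant libraries lay below all 3 libraries labelled met-2, where 38.7% of all genes tested showed this. The largest differences were in col-65, by -6.11 on the log2 scale (SE 0.53), ttr-17, by -6.09 (SE 0.67), Y47D7A.13, by -5.12 (SE 0.57) and K08C7.6, by -4.96 (SE 0.60). Each of these 4 calls held under all 18 alternatives, which kept the same 62 genes and so do not check the selection. At the other end of the called genes were apt-9, at -1.68 (SE 0.62), C25F9.5, at -1.62 (SE 0.37), clec-26, at -1.38 (SE 0.41) and F57H12.6, at -1.05 (SE 0.24). Of 18 alternatives, the call was lost in 11 for apt-9, in 10 for F57H12.6 and in 3 for C25F9.5.

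Against set-25 the double mutant was lower in 27 of the 62 genes (43.5%), where 17.7% of all genes tested were lower. The limit of the selection was 0.242 CPM in the double mutant and 0.430 CPM in set-25, so this count too rests on values that chose the genes. No gene was called higher by edgeR or DESeq2 (20.5% of all genes tested by edgeR), with 0 at an unadjusted p under 0.05. The median log2 change was -1.51 over the 62 genes and -0.10 over all genes tested. The strongest differences were again in col-65, at -4.48 (SE 1.10) and ttr-17, at -4.45 (SE 0.96), then K08C7.6, at -3.65 (SE 1.11) and F26G1.5, at -3.50 (SE 1.08). The smallest called differences were in cnc-3, at -1.63 (SE 0.57), gcy-32, at -1.57 (SE 0.59), grl-5, at -1.56 (SE 0.90) and F30A10.2, at -1.45 (SE 0.68). The call of grl-5 was lost in 12 of 18 alternatives, those of gcy-32 and F30A10.2 in 8 each and that of cnc-3 in 4. The libraries of the 2 genotypes did not overlap in 16 genes, where 23.3% of all genes tested were lower without overlap (25.8% of the 62). The number called rested on single libraries: it was 50 without set-25 library a, 17 without set-25 library c, and 15, 13 and 15 without double mutant library a, b or c. Without set-25 library c the median log2 change was -0.80.

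The libraries labelled met-2 were higher than set-25 in 9 of the 62 genes (14.5%), where 15.5% of all genes tested were higher. The libraries did not overlap in 7 of the 62, where 18.5% of all genes tested were higher without overlap. No gene was called lower by edgeR or DESeq2 (9.28% of all genes tested by edgeR), with 0 at an unadjusted p under 0.05. The genes with the largest differences were unc-8, at 2.22 (SE 0.98), F53F1.4, at 2.21 (SE 1.14), trp-1, at 2.01 (SE 0.70) and lge-1, at 1.78 (SE 0.86). The 4 smallest called differences, in Y38A10A.2, ttr-46, hic-1 and ZK829.3, ran from 1.66 in Y38A10A.2 to 1.5003 in ZK829.3. The count of 9 became 1, 0 and 26 without library a, b or c of the group labelled met-2, and 4, 1 and 45 without set-25 library a, b or c. It became 4, 5 and 4 without double mutant library a, b or c, and 5 without N2 library b or c. Of 18 alternatives, the call was lost in 14 for ttr-46, in 13 for ZK829.3, in 12 for hic-1, in 11 for lge-1, in 7 for Y38A10A.2, in 6 for F53F1.4, in 4 for unc-8 and in 3 for trp-1.

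**Figure D3:**
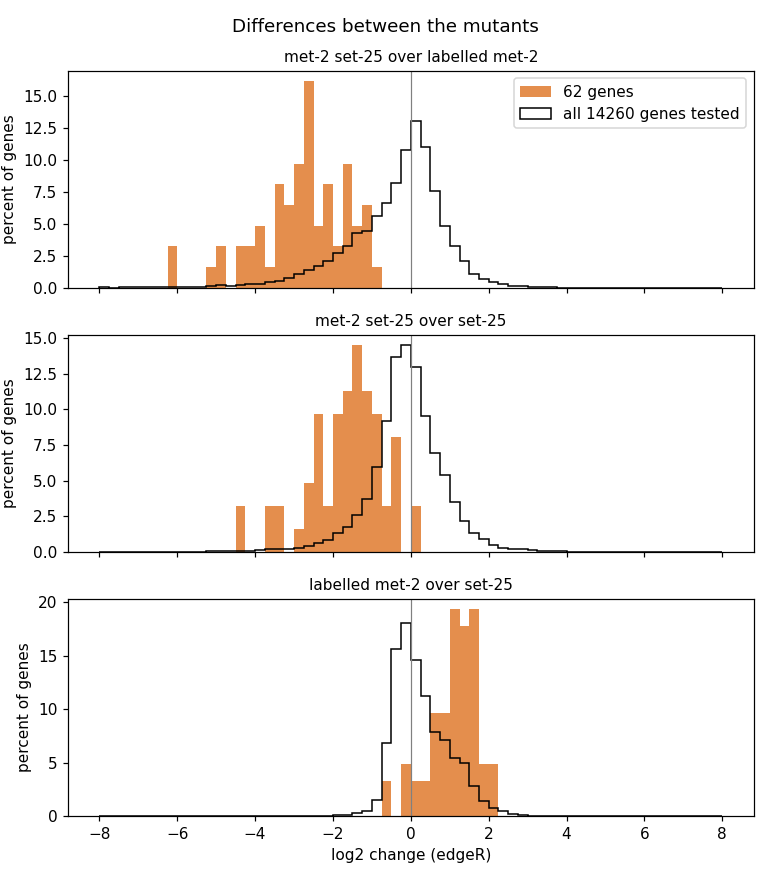
Distribution of the log2 change for each pair of mutants, as percent of the 62 genes (filled) and percent of all 14260 genes tested (line). The 62 genes have medians of -2.65 and -1.51 in the upper 2 panels, below the line's centre, and 1.22 in the lowest.

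The libraries of a genotype differed in the same way across nearly all 62 genes. The selection used sums over libraries, and a gene could reach a limit through its highest libraries alone. How a sum divides among libraries is therefore not independent of the selection, and the shares below are a description. Set-25 library a was the lowest and library c the highest of the genotype in 60 of the 62 genes, where 33.1% of all genes tested showed this; the exceptions were Y11D7A.5 and clec-26. Library c exceeded library a at least 4-fold in 52 of the 62 genes, where 10.3% of all genes tested did. The median ratio of library c to a was 8.08 over the 62 genes (1.92 to 18.6) and 1.12 over all genes tested. Library c of the group labelled met-2 was the lowest of its genotype in 62 of 62 genes, where 45.5% of all genes tested showed this. There the median ratio of library a to c was 2.104, and that of b to a was 1.02. The double mutant libraries lay closer together, with a median ratio of 1.51 between the highest and the lowest. In 27 of the 62 genes set-25 library a was below every double mutant library, where 47.2% of all genes tested were, and this share is near that background. Counts were low there: lge-1, T02B11.6, ocr-4 and tsp-6 had 2 reads each in set-25 library a.

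Summed marker levels differed between the same libraries. In set-25 libraries a, b and c the 18 body wall muscle genes summed to 866, 1751 and 2328 CPM, and the 13 epidermis and seam genes to 2458, 4761 and 5070 CPM. The 13 pharynx genes summed to 130, 292 and 402 CPM and the 14 intestine genes to 179, 236 and 319 CPM. Other cuticle collagens summed to 2383, 3793 and 5785 CPM. Families that also gave genes to the 62 ran in the reverse order there. Other ttr genes summed to 1921, 1402 and 1323 CPM and other C-type lectins to 2409, 1801 and 1678 CPM. Among the libraries labelled met-2, in the order a, b, c, the muscle genes summed to 3433, 4244 and 2254 CPM and the other collagens to 9976, 8052 and 5524 CPM. In the same libraries other ttr genes summed to 2114, 1806 and 1641 CPM and other C-type lectins to 2160, 2196 and 2330 CPM. In double mutant libraries a, b and c the muscle genes summed to 3065, 3044 and 3052 CPM and the epidermis and seam genes to 6596, 6251 and 6527 CPM. Both lay above every set-25 library, unlike the 62 genes. The pharynx genes (377, 366 and 393 CPM) and intestine genes (259, 252 and 248 CPM) lay within the set-25 range. In N2 the muscle genes summed to 1841, 1828 and 1278 CPM and the epidermis and seam genes to 4910, 4912 and 3930 CPM. The germline and maternal genes, at 2155, 2639 and 1889 CPM in set-25 libraries a, b and c, did not follow the order of the 62 genes. In libraries a, b and c labelled met-2 they summed to 2043, 2061 and 2408 CPM, highest in library c, where the 62 genes were lowest. The 19 neuron genes summed to 403, 414 and 423 CPM in double mutant libraries a, b and c, to 349, 392 and 257 CPM in those labelled met-2 and to 206, 238 and 324 CPM in set-25, against 422, 392 and 433 CPM in N2. Within both single mutant genotypes their lowest library was that of the 62 genes. By gene, 12 of the 19 were lower and 2 higher in the double mutant than in the libraries labelled met-2, with a median log2 change of -1.70, although their summed level was higher. Of all genes tested, 30.8% were lower and 23.1% higher in that comparison. None of the epidermis, muscle, neuron or germline list genes met the N2 limit of 6 counts, so these cell types' markers were present in N2. The part of marker levels in the results above was not tested.

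**Figure D4:**
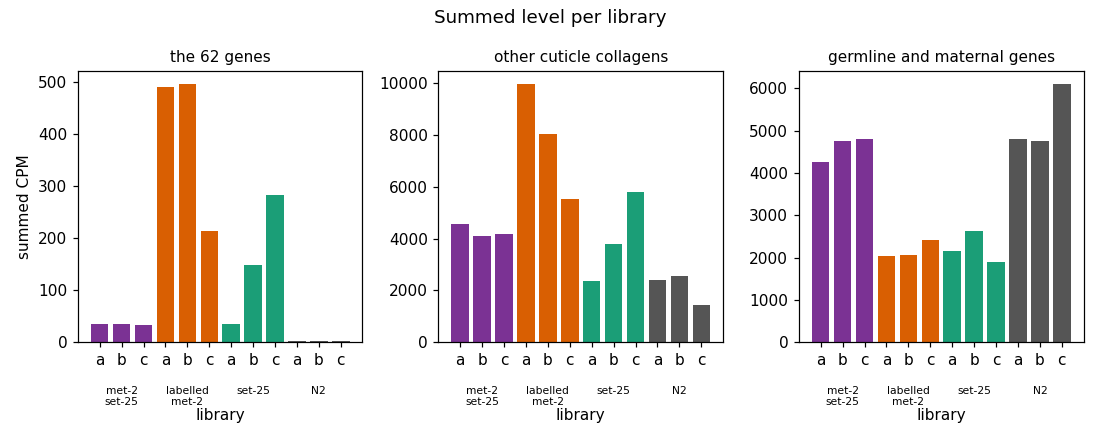
Summed CPM per library for the 62 genes (left), for other cuticle collagens (middle) and for germline and maternal genes (right), with bars a, b and c for each genotype. The 62 genes reach 34.8, 148 and 283 CPM in set-25 libraries a, b and c, and other collagens run in the same order. Other ttr genes and C-type lectins, not shown, run in the reverse order in set-25.

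In the genome the 62 genes were spread over all 6 chromosomes. Chromosome V held 23 (37.1%), where it held 18.99% of the 13913 tested genes with a position. Of all 27166 genes with a position, tested or not, it held 21.1%. Chromosome IV held 16 (25.8%), above its 15.9% of tested genes but below its 32.7% of all genes with a position. The X chromosome held 11 (17.7%), against 14.6% of tested genes and 11.2% of all genes with a position. Chromosomes I, II and III held 6, 4 and 2. The outer parts of the autosomes, with each autosome divided into 3 equal parts by length, held 28 of the 62 (45.2%). They held 50.7% of tested genes and 62.6% of all genes with a position. These shares were not tested. Only 6 pairs lay within 50 kb of each other, and no 3 of the genes formed a cluster. The closest pair was H23N18.5 and C02E7.7 on chromosome V (4911712 to 4918574), with 5754 bases and 1 coding gene between them on the same strand. The genes grl-5 and Y47D7A.13 lay 20328 bases apart on the same strand, with 9 coding genes between them. Of the 62 genes, 60 were annotated as protein coding, with a median coding length of 1047 bases, where tested coding genes had 1140. The other two, C27A7.2 and R03H4.7, were annotated as pseudogenes. C27A7.2 averaged 0.586 ± 0.191 CPM in the double mutant, 1.56 ± 0.412 CPM in the libraries labelled met-2 and 1.66 ± 1.49 CPM in set-25, against 0.0517 ± 0.0481 CPM in N2 (SD, n = 3). R03H4.7 was lower, with 0.259 ± 0.0439 CPM in the double mutant, 0.886 ± 0.494 CPM in the libraries labelled met-2 and 0.508 ± 0.230 CPM in set-25, against 0.0342 ± 0.0426 CPM in N2 (SD, n = 3). Reads could be shared with related genes there and in the ttr and clec families.

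Overlapping annotation touched 19 of the 62 genes, and 18 overlapped a gene of the opposite strand, and no source used here gives the strand setting of the counts. The partner exceeded 1 CPM on average in some genotype for 6 of them: C08B6.11, C50D2.1, dgk-3, scav-5, slcf-2 and Y43F8B.14. Partners without a measured level could not pass this cut. Among them were opposite-strand partners of unc-8 (353 bases shared), lge-1 (497 bases) and ptr-16 (208 bases). C27D6.12, sharing 142 bases with C27D6.1, stood at 0.216, 0.624 and 0.626 CPM in the double mutant, met-2-labelled and set-25 groups. C27D6.1 itself stood at 0.347, 0.604 and 0.643 CPM. For C50D2.1 the shared stretch was 33 bases, with K10B4.3 at 73.9 CPM in the double mutant, 63.3 CPM in the libraries labelled met-2 and 58.6 CPM in set-25, against 60.4 CPM in N2. The gene C50D2.1 itself averaged 3.61 CPM in the double mutant, 50.8 CPM in the libraries labelled met-2 and 23.1 CPM in set-25, against 0.0477 CPM in N2. In N2, where their partners cht-1 and ina-1 stood at 1694 and 402 CPM, slcf-2 stood at 0.0455 CPM and dgk-3 at 0.0497 CPM. The partners of C08B6.11, scav-5 and Y43F8B.14 were themselves low in N2, at 0.141, 0.0876 and 0.0996 CPM, and for these 3 genes reads of the partners cannot be told apart.

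Just inside the N2 limit stood 12 genes with 6 counts, col-65 and C50D2.1 among them, and just outside it 16 genes with 7 counts that met all other limits, among them col-131 and clec-10. At the double mutant limit, C02E7.7, gcy-32, tsp-6 and ttr-17 had 30 counts, while cyp-37B1, F59F5.5, R07B1.6 and W04E12.9 had 28. At the set-25 limit tsp-6 had 31 counts, while cthd-1 and C49A9.2 had 27. The libraries labelled met-2 set the limit for 1 gene, F59H5.3, with 19 counts.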

How the data were processed

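The authors deposited a table of raw counts per gene, in whole numbers with no scaling per the file headers; no source used here gives the aligner, counter, strand setting or genome build. A width in bases stands beside the counts in the deposited table, in other units than the counts. A table of repeat families was not used. Columns were assigned to genotypes by name; all 62 genes were found by sequence name in the Ensembl annotation of WBcel235, the source of positions and symbols, and 25 have a symbol. All 12 libraries entered 1 quasi-likelihood fit in edgeR 4.0.16 under R 4.3.3, with TMM scaling, robust dispersion and its filter for low counts, which 14260 genes and all 62 passed. Tests were two-sided with Benjamini-Hochberg adjustment over all genes tested and a threshold of 0.05. SE comes from log2 CPM with a prior count of 2, which narrows it for weak genes. On simulated data of 14260 genes, for the double mutant against met-2, the test found 58.0% of the 2-fold changes and 98.0% of the 4-fold changes, and 4.29% of calls were false. The simulation gave every gene the same spread, changed only genes above a set mean count and held no differences shared by the genes of a library. Its share of false calls is therefore not a rate for the real libraries. The 62 genes and the gene lists were chosen with earlier results of these data known. Named genes are the 12 with and 4 without a symbol of highest mean CPM, the 4 extreme called genes at each end of a comparison between mutants, up to 4 per list and those nearest the limits. Genes named as exceptions to a count or for overlapping a partner were chosen after their values were seen.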

Additional observations from a re-analysis of the deposited data

How the results depend on the processing

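The count of genes lower in the double mutant than in the libraries labelled met-2 stayed within 1.5 times of 54 under all alternatives: 47 to 60 across 6 settings and 45 to 59 with 1 library left out. Against set-25 the count of 27 became 41 with library totals alone, 13 to 50 with 1 library left out, and 19 to 33 in the other settings. With totals the median over all genes moved to -0.40, from -0.10. For the libraries labelled met-2 against set-25 the count of 9 became 14 with DESeq2 size factors, 17 with DESeq2, 3 with libraries thinned to the smallest total, 0 in edgeR with only the 6 libraries compared (23 at an unadjusted p under 0.05) and 0 to 45 with 1 library left out (16 at an unadjusted p under 0.05 where it was 0). The cause was not tested. Of 432 values of named genes under alternatives, 306 kept their call, 126 lost it and 0 reversed.

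The set itself depends on its limits and on depth. It had 30 genes with an N2 limit of 3 counts, 155 with 12, 165 with mutant limits of 15 counts and 22 with 60. With 1 library left out and limits scaled it had 50 to 80. Thinned to the smallest library it had 78 genes, of which 15 were among the 62. At this depth a sum of 6 counts in N2 does not show that a gene is unexpressed. The order of set-25 libraries held in 58 to 60 genes, and the low place of library c labelled met-2 in 61 to 62, under 3 other scalings chosen after seeing the data. No paired analysis was possible because the columns carry letters that no source pairs with the replicate numbers of the labels.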

Other observations

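A larger group of genes met the N2 limit and the limits of both single mutants but fell short in the double mutant. It held 84 genes, with a median of 15 counts over the 3 double mutant libraries, and 45 of the 84 had 15 counts or more. The highest of the 84 included collagens. Cuticle collagens were 7 of the 84 genes and 74 of the 12253 genes that met the N2 limit. The 12253 had no lower limit in the mutants, so these shares are not alike. Of genes that met the N2 limit and reached 30 counts, collagens were 15 of 433 in the libraries labelled met-2. In set-25 they were 10 of 148. The collagen col-77 averaged 0.0388 CPM in the double mutant, 25.7 CPM in the libraries labelled met-2 and 5.38 CPM in set-25, with 5 counts in N2, and col-125 averaged 0.146 CPM in the double mutant, 22.04 CPM in the libraries labelled met-2 and 4.43 CPM in set-25, with 3 counts in N2. The gene with the highest level in the libraries labelled met-2, K01D12.9, averaged 0.129 CPM in the double mutant, 37.5 CPM in the libraries labelled met-2 and 17.4 CPM in set-25, with 1 count in N2. In 73 of the 84 genes set-25 library a was the lowest and c the highest of its genotype, where 33.1% of all genes tested showed this. In all 84 library c was the lowest of those labelled met-2, where 45.5% of all genes tested showed this. These genes were chosen on the same counts, and no test was made of them. In all, 12253 genes met the N2 limit, of which 108 reached 30 counts in the double mutant, 433 in the libraries labelled met-2 and 148 in set-25.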
